A study of Mus musculus with 15 samples.

Results

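The endothelial genes of mouse liver were followed here across 4 groups of male mice. They comprised 15 genes that mark the sinusoidal endothelium and 24 genes shared by endothelium in general. The members were taken from a list of names and were matched to probe sets annotated with exactly 1 gene symbol. All 39 names had such a probe set, out of 19938 genes on the array. Clec4g had 2 and the others had 1 each, and the brighter probe set was kept.

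The series asked how di(2-ethylhexyl) phthalate (DEHP), a plasticizer that activates the nuclear receptor PPARα, acts through PPARα and the constitutive androstane receptor CAR in liver. PPARα-null mice (129S4/SvJae-Pparatm1Gonz/J) given DEHP at 1150 mg/kg/day (n = 3) and PPARα-null mice given corn oil (n = 4) stood beside wild-type mice (129S1/SvlmJ) given the same dose of DEHP (n = 4) and wild-type mice given corn oil (n = 4). All were about 7.5 months old, were gavaged daily for 4 days, and gave 1 array each. Both lines came from a colony kept on a 129/Sv background, and since each genotype has its own 129 substrain, substrain and genotype cannot be told apart.

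Liver sinusoids are lined by a fenestrated endothelium that filters plasma and clears hyaluronan, modified proteins and immune complexes through scavenger, lectin and Fc receptors. The same cells send signals to hepatocytes: BMP2 and BMP6 drive hepcidin, and WNT2, WNT9B and R-spondin 3 sustain the pericentral gene programme. They share with other endothelium the receptors of VEGF and angiopoietins, the junction proteins and the ETS and SOX transcription factors. Some members are also made by other liver cells, such as Mrc1 by macrophages, Aqp1 by bile duct cells, Gata4 by stellate cells and Ets1 by lymphocytes.

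Median intensity over all 35494 probe sets ran from 44.4 to 47.5 across the 15 arrays. Within groups, pairs of arrays had correlations of 0.988 to 0.992 across probe sets (genes are no replicates of each other). Ppara, the targeted gene, read 9.11, 9.27 and 9.12 on the log2 scale in null mice given DEHP and 8.99, 9.24, 9.10 and 9.01 in null mice on corn oil, against 9.87, 9.60, 10.23 and 9.55 in wild-type mice given DEHP and 9.64, 9.86, 9.88 and 9.73 in wild-type mice on corn oil. All null arrays lay below all wild-type arrays for Ppara, as the labels have it. Values below are log2 intensities, listed in the order of the animal numbers: KO-121 to KO-123 (null, DEHP), KO-115 to KO-118 (null, corn oil), WT-56 to WT-59 (wild type, DEHP) and WT-52 to WT-55 (wild type, corn oil). A difference is on the log2 scale and is given with its limma standard error. Genes count as called where limma's p, after adjustment across the 19938 genes, was below 0.05.

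The starting stretches of 5 genes that fell with DEHP in wild-type mice are shown first. Stab2, Fcgr2b and Ehd3 are the members for which a difference between the genotypes in the response to DEHP was called. Tie1 and Eng are pan-endothelial. Each line is the 250 bases before the annotated transcription start, 5′ to 3′ on the gene's strand, from RefSeq on GRCm38.p6. Capitals mark the hexamer AGGAAG or its reverse complement CTTCCT, a core of binding sites of ETS factors such as ERG and ETS1. The stretches lie at chr10:87007943-87008192 (- strand) for Stab2, chr1:170976072-170976321 (- strand) for Fcgr2b, chr17:73804591-73804840 (+ strand) for Ehd3, chr4:118489850-118490099 (- strand) for Tie1 and chr2:32646345-32646594 (+ strand) for Eng.
Stab2: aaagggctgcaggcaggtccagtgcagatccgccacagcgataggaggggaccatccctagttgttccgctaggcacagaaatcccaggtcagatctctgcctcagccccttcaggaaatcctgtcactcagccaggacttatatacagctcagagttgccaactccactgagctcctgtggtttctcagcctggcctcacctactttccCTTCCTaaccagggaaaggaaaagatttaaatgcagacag
Fcgr2b: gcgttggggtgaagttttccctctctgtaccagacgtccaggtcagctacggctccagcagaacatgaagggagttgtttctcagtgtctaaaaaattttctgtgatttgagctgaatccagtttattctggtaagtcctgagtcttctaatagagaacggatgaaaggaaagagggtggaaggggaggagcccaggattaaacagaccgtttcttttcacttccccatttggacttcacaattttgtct
Ehd3: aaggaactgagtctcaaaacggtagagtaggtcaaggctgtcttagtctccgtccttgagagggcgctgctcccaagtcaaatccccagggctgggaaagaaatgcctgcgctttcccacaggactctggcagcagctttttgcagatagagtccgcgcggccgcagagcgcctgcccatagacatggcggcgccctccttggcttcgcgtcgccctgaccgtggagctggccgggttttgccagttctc
Tie1: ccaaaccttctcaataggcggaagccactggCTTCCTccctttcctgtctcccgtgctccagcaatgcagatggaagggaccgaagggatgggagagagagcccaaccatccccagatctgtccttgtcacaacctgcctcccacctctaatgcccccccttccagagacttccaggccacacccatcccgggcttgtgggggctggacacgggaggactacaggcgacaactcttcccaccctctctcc
Eng: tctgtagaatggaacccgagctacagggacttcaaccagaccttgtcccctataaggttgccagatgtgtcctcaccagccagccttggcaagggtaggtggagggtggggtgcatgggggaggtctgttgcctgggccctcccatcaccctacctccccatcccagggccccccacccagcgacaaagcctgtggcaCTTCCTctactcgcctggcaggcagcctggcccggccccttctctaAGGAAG
Stab2 held 1 such hexamer, Tie1 1 and Eng 2, while Fcgr2b and Ehd3 held none in this window. Cldn5, the third pan-endothelial gene that fell and not printed here, also held none, which made 3 of the 6 fallen genes with a window. Of the 39 members 21 matched the promoter table, with 25 windows in all, of which 13 (52%) held the hexamer on either strand, against 29.5% of all 32851 windows. The SOX hexamer AACAAT was in 3 member windows (12%, against 9.42% of all), and the GATA hexamer AGATAA in 1 (4%, against 9.99%). The direct repeat to which PPARα and its partner RXR bind, AGGTCA repeated after 1 spacer base, was in none of the 25 and in 0.0335% of all windows. Only this exact run was searched. It was in 11 of all 32851 windows, too rare for its absence from 25 windows to tell whether these genes have PPARα sites. Motifs were searched on both strands, and the 5 windows shown held only the ETS hexamer. A match is a run of letters and not a measured site.

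In wild-type livers DEHP lowered 8 of the 39 endothelial genes and raised none. The sinusoidal genes Ehd3, Bmp2, Fcgr2b, Stab2 and Rspo3 fell to between 0.687 and 0.839 of their corn oil level, and the pan-endothelial genes Tie1, Eng and Cldn5 to between 0.791 and 0.838. This was 5 of 15 sinusoidal and 3 of 24 pan-endothelial genes, where 1.57% of all genes were called down and 2.29% up, and 2.76% of genes at or above the median level, to which 36 of the 39 members belonged. Called or not, 31 of 39 members lay below 0, against 55% of all genes. In 11 members every DEHP animal lay below every corn oil animal, as in 5.77% of all genes. Less RNA per endothelial cell and fewer endothelial cells cannot be told apart in whole liver.

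**Figure D1:**
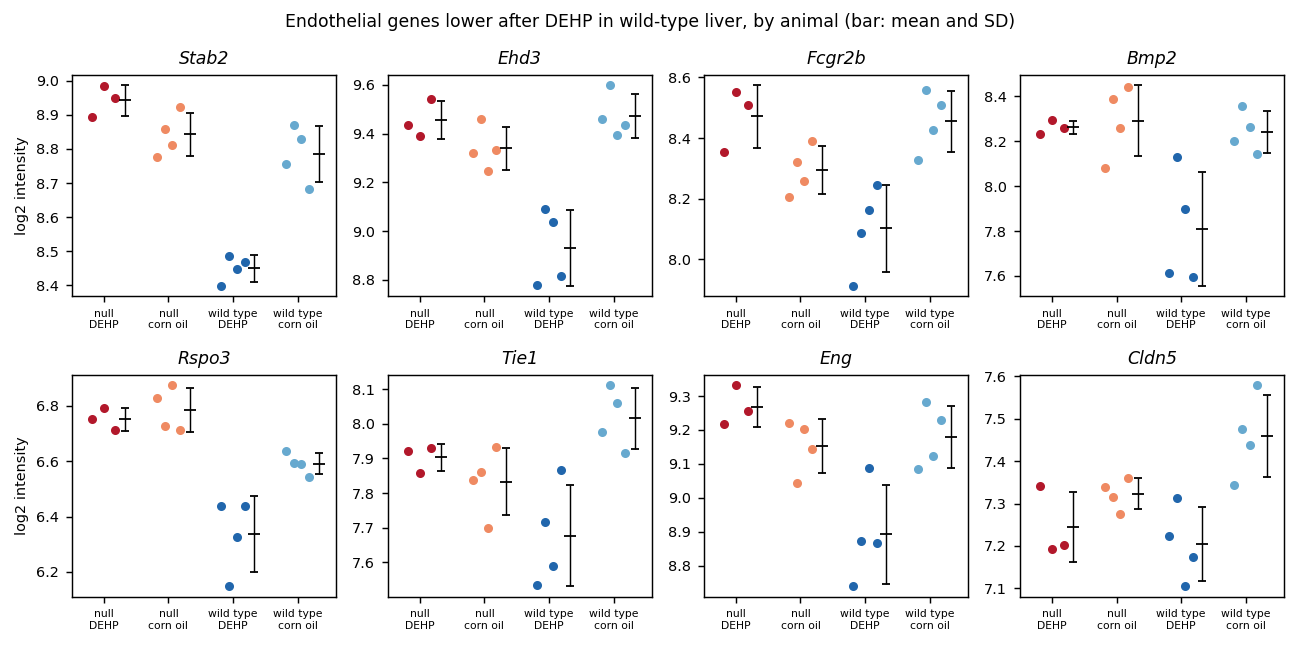
Log2 intensity (vertical axis) of the 8 endothelial genes called lower after DEHP in wild-type liver, 1 point per animal, with the mean and SD of each group beside the points. The 4 wild-type animals given DEHP lie below the 4 on corn oil for every gene except Eng, where WT-58 at 9.09 reaches the lowest corn oil animal, and the null groups overlap for all 8 genes.

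Among the uptake genes of the sinusoid, Stab2, a scavenger receptor that clears hyaluronan, read 8.40, 8.49, 8.45 and 8.47 in wild-type mice given DEHP and 8.76, 8.87, 8.83 and 8.68 in wild-type mice on corn oil. The groups did not overlap, and the spread within each was small (difference -0.33 ± 0.06, adjusted p = 0.00337). Ehd3, an ATPase of endocytic recycling, read 8.78, 9.09, 9.04 and 8.82 with DEHP and 9.46, 9.60, 9.40 and 9.43 on corn oil, the largest difference of the 39 members (-0.54 ± 0.08, adjusted p = 0.000946). Fcgr2b, the inhibitory Fc receptor that takes up immune complexes, read 7.91, 8.09, 8.16 and 8.25 with DEHP and 8.33, 8.56, 8.43 and 8.51 on corn oil (-0.35 ± 0.08, adjusted p = 0.019). In both genes, too, all DEHP animals lay below all controls.

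Other receptors of the sinusoid were not called. Stab1, the relative of Stab2, read 8.58, 8.69, 8.61 and 8.53 with DEHP and 8.73, 9.03, 8.87 and 8.82 on corn oil, again without overlap (-0.26 ± 0.09, adjusted p = 0.129). Mrc1, the mannose receptor, read 8.07, 8.29, 8.34 and 7.96 with DEHP and 8.34, 8.46, 8.57 and 8.45 on corn oil (-0.29 ± 0.10, adjusted p = 0.139), and its groups met, WT-58 with DEHP just reaching WT-52. Lyve1, a hyaluronan receptor, read 6.65, 6.25, 6.47 and 5.75 with DEHP and 6.21, 6.24, 6.12 and 6.15 on corn oil (0.10 ± 0.18, adjusted p = 0.852). The DEHP animals spread on both sides of the tightly grouped controls, and its standard error was the largest of the list. The lectin Clec4g, the secreted protein Oit3, the chemokine-binding receptor Gpr182 and the chromatin-degrading nuclease Dnase1l3 ran from -0.14 to 0.04, with adjusted p from 0.57 to 0.913.

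Of the signals that sinusoidal cells send, Bmp2, an inducer of hepcidin, read 7.61, 8.13, 7.90 and 7.59 with DEHP and 8.20, 8.36, 8.26 and 8.14 on corn oil (-0.43 ± 0.11, adjusted p = 0.0333). WT-56 and WT-59 were far below the controls and WT-57 only just below the lowest of them. Rspo3, an amplifier of WNT signalling, read 6.44, 6.15, 6.33 and 6.44 with DEHP and 6.64, 6.59, 6.59 and 6.54 on corn oil (-0.25 ± 0.07, adjusted p = 0.0494), again with no overlap. Wnt2 read 5.97, 6.53, 6.23 and 6.13 with DEHP and 6.55, 6.33, 6.49 and 6.06 on corn oil (-0.14 ± 0.11, adjusted p = 0.608), and Wnt9b 6.38, 6.34, 6.38 and 6.38 with DEHP and 6.45, 6.38, 6.15 and 6.07 on corn oil (0.11 ± 0.09, adjusted p = 0.643). Both of these WNT ligands overlapped between the groups. Gata4, a transcription factor that maintains sinusoidal identity, stood at -0.19 ± 0.09 (adjusted p = 0.298).

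Among the pan-endothelial receptors, Tie1, the partner of the angiopoietin receptor, read 7.54, 7.72, 7.59 and 7.87 in wild-type mice given DEHP and 7.98, 8.11, 8.06 and 7.92 in wild-type mice on corn oil (-0.34 ± 0.08, adjusted p = 0.0198). The highest DEHP animal, WT-59, lay just below the lowest control. Eng, the co-receptor of BMP9 and BMP10, read 8.74, 8.87, 9.09 and 8.87 with DEHP and 9.09, 9.28, 9.12 and 9.23 on corn oil (-0.29 ± 0.07, adjusted p = 0.0421). The VEGF receptor 2 gene Kdr read 8.53, 8.67, 8.88 and 8.59 with DEHP and 8.90, 9.11, 8.97 and 8.85 on corn oil (-0.29 ± 0.08, adjusted p = 0.065). It was not called, and WT-58 lay above the lowest control, WT-55. Tek, the angiopoietin receptor TIE2, read 7.35, 7.39, 7.44 and 7.34 with DEHP and 7.48, 7.59, 7.55 and 7.48 on corn oil (-0.14 ± 0.07, adjusted p = 0.33), without overlap.

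The VEGF receptor 1 gene Flt1 read 6.93, 6.90, 6.76 and 6.88 with DEHP and 6.80, 6.88, 6.87 and 6.81 on corn oil (0.03 ± 0.06, adjusted p = 0.862), and the VEGF receptor 3 gene Flt4 7.29, 7.55, 7.66 and 7.23 with DEHP and 7.39, 7.55, 7.60 and 7.47 on corn oil (-0.07 ± 0.10, adjusted p = 0.812). Neither moved beyond its spread. Among junction genes, Cldn5, a tight junction claudin, read 7.22, 7.31, 7.10 and 7.17 with DEHP and 7.34, 7.48, 7.44 and 7.58 on corn oil (-0.26 ± 0.06, adjusted p = 0.0371). Cdh5, which encodes VE-cadherin, read 7.42, 7.61, 7.67 and 7.52 with DEHP and 7.56, 7.85, 7.63 and 7.61 on corn oil (-0.11 ± 0.08, adjusted p = 0.551). The adhesion molecule Pecam1 stood slightly on the other side of 0, at 7.06, 7.18, 7.21 and 7.22 with DEHP and 6.98, 7.15, 7.15 and 6.95 on corn oil (0.11 ± 0.08, adjusted p = 0.557). The defining markers Pecam1 and Cdh5 were thus not called while Cldn5 was.

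The remaining pan-endothelial genes were not called in wild-type mice. The water channel Aqp1 (-0.27 ± 0.08), the secreted protein Egfl7 (-0.25 ± 0.07), the phosphatase of TEK and VE-cadherin Ptprb (-0.21 ± 0.07) and the transcription factor Ets1 (-0.18 ± 0.07) had adjusted p of 0.0806, 0.0607, 0.134 and 0.189. The others (Emcn, Nos3, Robo4, Clec14a, Esam, Icam2, Sox17, Sox18, Erg, Plvap and Ramp2) lay between -0.17 and 0.03, with adjusted p of at least 0.274. The transcription factors Sox17, Sox18 and Erg read 0.01, -0.06 and -0.14.

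Stab2 and Ehd3 stayed called when any of the 8 wild-type animals was left out. Fcgr2b lost its call in 3 of these 8 fits, Tie1 in 4, Rspo3, Eng and Cldn5 in 6 each and Bmp2 in 7, with adjusted p up to 0.135. The count of 8 was 2 without WT-53, 3 without WT-54, WT-55 or WT-56 and 5 without WT-58 or WT-59. It was 5 with each array centred on its median and 3 with only the wild-type groups in the fit.

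**Figure D2:**
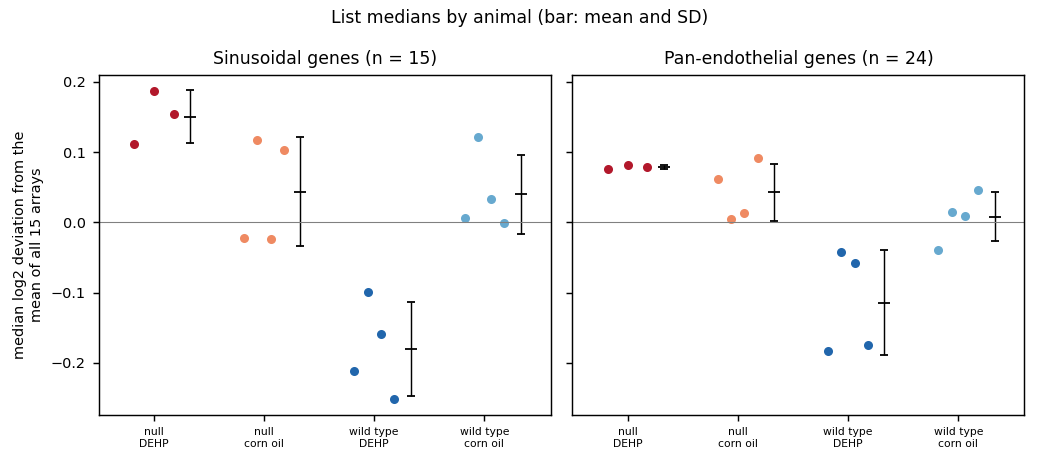
Median, over the 15 sinusoidal genes (left) and the 24 pan-endothelial genes (right), of each animal's log2 deviation from the mean of all 15 arrays (vertical axis), 1 point per animal with group mean and SD beside. The 4 wild-type animals given DEHP have the 4 lowest medians in both panels, from -0.25 to -0.10 for sinusoidal genes.

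By animal, the 15 sinusoidal genes had a median log2 deviation from their 15-array means of -0.21, -0.10, -0.16 and -0.25 in wild-type mice given DEHP and 0.01, 0.12, 0.03 and 0.00 in wild-type mice on corn oil. For the 24 pan-endothelial genes it was -0.18, -0.04, -0.06 and -0.17 with DEHP and -0.04, 0.01, 0.01 and 0.05 on corn oil. WT-56 and WT-59 were the lowest of all 15 animals in both groups of genes, and WT-57 and WT-58 came next. In the pan-endothelial genes WT-57, at -0.04, lay just below control WT-52, also -0.04 at this precision.

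In PPARα-null livers none of the 39 endothelial genes was called after DEHP by limma (n = 3 against 4), where 0.471% of all genes were. At an unadjusted p below 0.05 there were 7 of 39, against 2450 of all 19938 genes. The medians lay above 0, at 0.12 for sinusoidal and 0.07 for pan-endothelial genes, beside 0.01 for all genes. Of the 39, 25 were above 0, against 54.6% of all genes.

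Stab2 read 8.89, 8.99 and 8.95 in null mice given DEHP and 8.78, 8.86, 8.81 and 8.92 in null mice on corn oil (0.10 ± 0.06, adjusted p = 0.559). Ehd3 read 9.44, 9.39 and 9.54 with DEHP and 9.32, 9.46, 9.25 and 9.33 on corn oil (0.12 ± 0.08), and Fcgr2b 8.35, 8.55 and 8.51 with DEHP and 8.21, 8.32, 8.26 and 8.39 on corn oil (0.18 ± 0.08). All 3 had overlapping groups and means on the upper side. Stab1 read 8.82, 8.92 and 8.997 with DEHP and 8.63, 8.94, 8.96 and 9.05 on corn oil, Mrc1 8.51, 8.63 and 8.58 with DEHP and 8.22, 8.55, 8.31 and 8.65 on corn oil, and Lyve1 6.60, 6.24 and 6.27 with DEHP and 6.66, 5.74, 6.24 and 6.31 on corn oil. Their differences of 0.02 ± 0.09, 0.14 ± 0.11 and 0.13 ± 0.20 were not called, and all 3 genes overlapped between the groups.

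Of the signals, Bmp2 read 8.23, 8.29 and 8.26 in null mice given DEHP and 8.08, 8.39, 8.26 and 8.44 in null mice on corn oil (-0.03 ± 0.12), and Rspo3 6.75, 6.79 and 6.71 with DEHP and 6.83, 6.73, 6.88 and 6.71 on corn oil (-0.03 ± 0.07). Wnt2 read 6.58, 6.73 and 6.61 with DEHP and 6.53, 6.69, 6.64 and 6.74 on corn oil (-0.02 ± 0.12), and Wnt9b 6.51, 6.56 and 6.33 with DEHP and 6.38, 6.58, 6.53 and 6.21 on corn oil (0.04 ± 0.10). All 4 ligand genes overlapped between the groups. The receptor genes Kdr and Tie1 overlapped too, while Flt1, given below, did not. Kdr read 9.10, 9.23 and 9.14 with DEHP and 8.92, 9.13, 8.96 and 9.13 on corn oil (0.12 ± 0.09). Tie1 read 7.92, 7.86 and 7.93 with DEHP and 7.84, 7.86, 7.70 and 7.93 on corn oil (0.07 ± 0.08).

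Some null genes did separate without passing the threshold. Flt1 read 7.04, 7.17 and 7.19 with DEHP and 6.89, 6.90, 6.90 and 6.995 on corn oil (0.21 ± 0.06, adjusted p = 0.14). Cdh5 read 7.90, 8.06 and 7.91 with DEHP and 7.85, 7.71, 7.70 and 7.86 on corn oil (0.17 ± 0.08, adjusted p = 0.411). Clec4g, Gpr182 and Ptprb also lay higher in every DEHP animal (0.24, 0.21 and 0.19), and Egfl7 lower (-0.28 ± 0.08, adjusted p = 0.106). That made 5 members higher and 1 lower without overlap, where 5.57% and 4.42% of all genes were. Egfl7 stood below its corn oil level in both genotypes, at -0.28 in null and -0.25 in wild-type mice, neither called.

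**Figure D3:**
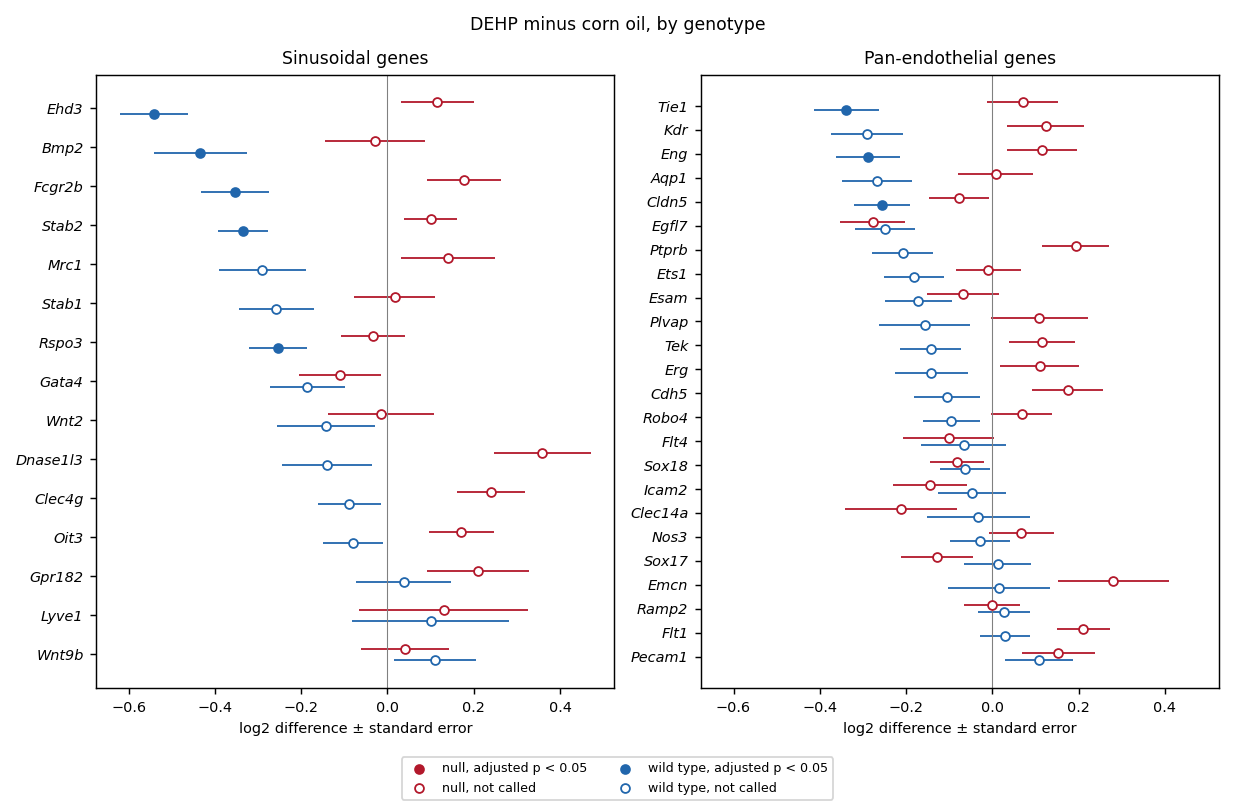
Log2 difference, DEHP minus corn oil, with its standard error (horizontal axis) for each of the 15 sinusoidal genes (left) and the 24 pan-endothelial genes (right), in null (red) and wild-type (blue) liver. Filled points are called; the 8 filled points are all wild-type and negative, and most null points lie at or right of 0.

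The difference between the genotypes in the response to DEHP was tested directly as the interaction, null response minus wild-type response. It was called for 3 of the 39 members, all sinusoidal and all positive, where 0.336% of all genes were called in that direction and 0.562% in the other. At an unadjusted p below 0.05 there were 18 of 39, against 2669 of all 19938 genes. They were 10 of 15 sinusoidal and 8 of 24 pan-endothelial genes. Ehd3 stood at 0.66 ± 0.12 (adjusted p = 0.0163), Stab2 at 0.43 ± 0.08 (adjusted p = 0.0234) and Fcgr2b at 0.53 ± 0.12 (adjusted p = 0.0416). The call of Ehd3 stood in all 15 fits without 1 animal, while that of Stab2 was lost in 7 of 15 and that of Fcgr2b in 10, with adjusted p up to 0.0718 and 0.112. With each array centred on its median, Ehd3 alone stayed called. The count was 1 without WT-53, WT-54, WT-56, KO-115, KO-117, KO-122 or KO-123, and 2 without WT-55 or WT-57.

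The pan-endothelial genes Ptprb, Eng and Tie1 came closest among those not called, at 0.40 ± 0.11, 0.40 ± 0.11 and 0.41 ± 0.11 (adjusted p = 0.0793, 0.0905 and 0.0919). For Bmp2 (0.40 ± 0.16, adjusted p = 0.263), Rspo3 (0.22 ± 0.10, adjusted p = 0.352) and Cldn5 (0.18 ± 0.10, adjusted p = 0.446), which fell in wild-type mice, a difference between the genotypes was not shown. The median interaction was 0.27 over sinusoidal and 0.17 over pan-endothelial genes, beside 0.03 over all genes.

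On corn oil, none of the 39 endothelial genes was called between null and wild-type livers by limma (n = 4 against 4). Of all genes 1.19% were called. There were 7 of 39 at an unadjusted p below 0.05, against 2383 of all 19938 genes. The medians were 0.03 for sinusoidal and 0.07 for pan-endothelial genes, beside -0.01 for all genes, and leaving out 1 animal took the sinusoidal median from 0.09 down to -0.01. Rspo3, Flt1, Pecam1 and Egfl7, 4 of the 39 where 4.06% of all genes did so, lay higher in every null animal, by 0.20, 0.08, 0.24 and 0.20, with adjusted p of 0.221, 0.636, 0.196 and 0.215. The largest positive difference was in Wnt2 (0.29 ± 0.11, adjusted p = 0.288) and the largest negative one in Tie1 (-0.18 ± 0.08, adjusted p = 0.338).

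Under DEHP, 18 of the 39 endothelial genes were higher in null than in wild-type livers and none was lower (n = 3 null against 4 wild type). They were 8 of 15 sinusoidal and 10 of 24 pan-endothelial genes, where 5.09% of all genes were called up and 5.61% down, and 9.1% of those at or above the median level. This comparison uses the same DEHP arrays as the comparisons with corn oil, so its calls are not separate evidence. In 23 members every null animal lay above every wild-type animal, as in 11% of all genes.

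The sinusoidal genes called were Ehd3 (0.53 ± 0.08, adjusted p = 0.000963), Stab2 (0.49 ± 0.06, adjusted p = 0.000124), Bmp2 (0.45 ± 0.12), Wnt2 (0.42 ± 0.12), Rspo3 (0.42 ± 0.07, adjusted p = 0.00181), Mrc1 (0.41 ± 0.11), Fcgr2b (0.37 ± 0.08) and Stab1 (0.31 ± 0.09). Stab2 was thus 1.41-fold and Ehd3 1.44-fold as high in null livers. Wnt2 was not called for DEHP in wild-type mice, and on corn oil its null mean lay 0.29 above the wild-type mean. Clec4g, Oit3 and Dnase1l3 also had groups without overlap but missed the threshold (0.20, 0.22 and 0.33). Lyve1, Wnt9b, Gata4 and Gpr182 overlapped.

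The pan-endothelial genes called were led by Ptprb (0.49 ± 0.08, adjusted p = 0.000753) and Kdr (0.49 ± 0.09, adjusted p = 0.00223). Ptprb read 9.44, 9.59 and 9.43 in null mice given DEHP, against 8.92, 9.04, 9.06 and 8.96 in wild-type mice given DEHP, while on corn oil it read 9.13, 9.36, 9.33 and 9.36 in null and 9.21, 9.28, 9.27 and 9.05 in wild-type mice. Plvap, a diaphragm protein of endothelium in general, read 9.23, 9.23 and 8.86 in null and 8.70, 8.60, 8.77 and 8.65 in wild-type mice under DEHP (0.43 ± 0.11), and 9.32, 8.91, 8.89 and 8.87 in null and 8.88, 8.84, 8.69 and 8.95 in wild-type mice on corn oil. Aqp1 read 9.81, 9.83 and 9.52 in null and 9.19, 9.47, 9.31 and 9.33 in wild-type mice under DEHP (0.40 ± 0.09), and 9.59, 9.77, 9.78 and 9.71 in null and 9.54, 9.61, 9.69 and 9.53 in wild-type mice on corn oil. The DEHP groups of all 3 genes were apart, and their corn oil groups overlapped.

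Cdh5 stood at 0.40 ± 0.08 under DEHP, Eng at 0.38 ± 0.08, Tek at 0.36 ± 0.08 and Flt1 at 0.26 ± 0.06 (adjusted p = 0.00528, 0.00665, 0.00634 and 0.012). Tek read 7.63, 7.90 and 7.69 in null mice given DEHP and 7.76, 7.59, 7.49 and 7.65 in null mice on corn oil. Flt4 (0.17 ± 0.11, adjusted p = 0.368) was not called, with 7.55, 7.67 and 7.60 in null mice given DEHP and 7.55, 7.61, 7.77 and 7.91 in null mice on corn oil. Erg, an ETS factor of endothelial identity, read 6.66, 6.51 and 6.71 in null and 6.42, 6.33, 6.42 and 6.14 in wild-type mice under DEHP (0.30 ± 0.09, adjusted p = 0.0473), and 6.51, 6.47, 6.48 and 6.61 in null and 6.31, 6.47, 6.68 and 6.41 in wild-type mice on corn oil. Pecam1 read 7.39, 7.59 and 7.37 in null mice given DEHP and 7.49, 7.24, 7.24 and 7.22 in null mice on corn oil, and differed from wild type by 0.28 ± 0.08 under DEHP (adjusted p = 0.0444) and 0.24 ± 0.08 on corn oil. The interaction for Pecam1 was 0.05 ± 0.12 (adjusted p = 0.91).

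Tie1 and Cldn5, which fell in wild-type mice, were not called between the genotypes under DEHP (Tie1 0.23 ± 0.08, adjusted p = 0.0981, and Cldn5 0.04 ± 0.07, adjusted p = 0.804). Eng read 9.22, 9.33 and 9.26 in null mice given DEHP and 9.22, 9.04, 9.20 and 9.14 in null mice on corn oil, and Cldn5 7.34, 7.19 and 7.20 with DEHP and 7.34, 7.32, 7.28 and 7.36 on corn oil. For Cldn5, KO-122 and KO-123 lay within the range of wild-type mice given DEHP and KO-121 above it. The calls of Stab2, Ehd3, Rspo3, Kdr, Cdh5, Eng and Ptprb stood without any 1 of the 7 DEHP animals. The others were lost in 1 to 7 of 7 such fits, Stab1 and Pecam1 in all 7, with adjusted p up to 0.227. The count of 18 was 7 without null animal KO-122, and 12 to 15 without each of the others. It was 12 with each array centred on its median and 13 with only the 2 DEHP groups in the fit.

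**Figure D4:**
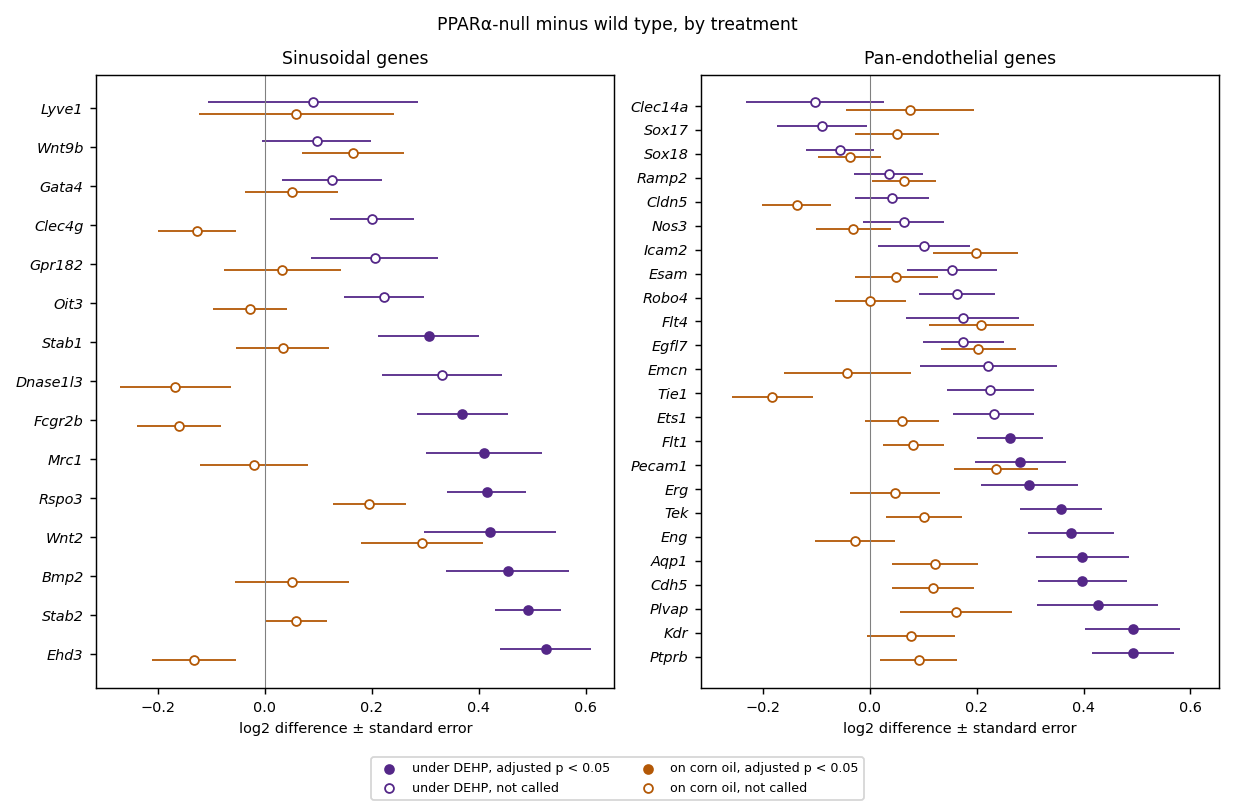
Log2 difference, null minus wild type, with its standard error (horizontal axis) for the sinusoidal (left) and pan-endothelial genes (right), under DEHP (purple) and on corn oil (orange). Filled points are called; all 18 are differences under DEHP and positive, and none of the differences on corn oil is filled.

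Set side by side, the sinusoidal genes had the larger median in each comparison that involves DEHP. In wild-type mice it was -0.19 for sinusoidal and -0.12 for pan-endothelial genes, beside -0.01 for all genes. Under DEHP the null excess was 0.33 and 0.22, beside 0.02 for all genes. Subtracting the pan-endothelial median from the sinusoidal one within each animal left -0.03, -0.06, -0.10 and -0.08 in wild-type mice given DEHP and 0.04, 0.11, 0.02 and -0.05 in wild-type mice on corn oil. These ranges overlap at WT-55. In null mice the same quantity was 0.04, 0.11 and 0.07 with DEHP and -0.08, 0.11, -0.04 and 0.01 on corn oil. The gap between the 2 groups of genes was not tested, and their ranges overlapped widely. Nor were the lists matched for signal level. Emcn, Icam2 and Sox17, the only members below the median level of all genes, are all pan-endothelial. With only genes at or above that level, the pan-endothelial median in wild-type mice was -0.14. The part of signal level in the gap was not tested. In wild-type mice the sinusoidal differences ran from -0.54 to 0.11 and the pan-endothelial ones from -0.34 to 0.11.

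Of 22 genes of VEGF, angiopoietin and Notch signalling, the ligands and partners of the endothelial receptors, 2 rose and none fell in wild-type mice, where 2.29% of all genes rose. None was called in null mice (2 at an unadjusted p below 0.05) or between genotypes under DEHP (2) or on corn oil (3). Of all 19938 genes 2450, 4588 and 2383 were below that p, in the same order. Vegfb, a ligand of the VEGF receptor 1, read 8.57, 8.45, 8.37 and 8.30 with DEHP and 7.73, 7.81, 7.99 and 7.80 on corn oil (0.59 ± 0.08, adjusted p = 0.000744). In null mice it read 8.35, 8.10 and 8.15 with DEHP and 7.72, 7.92, 7.997 and 7.83 on corn oil (0.34 ± 0.09, adjusted p = 0.101), and the interaction was -0.26 ± 0.12 (adjusted p = 0.381). Nrp2, a VEGF co-receptor, read 7.61, 7.74, 8.06 and 7.69 with DEHP and 7.32, 7.61, 7.38 and 7.20 on corn oil in wild-type mice (0.40 ± 0.10, adjusted p = 0.0395), a call lost in 6 of 8 fits without 1 wild-type animal. The main ligand of the VEGF receptor 2, Vegfa, which was picked by role after its values were seen, stood at -0.04 ± 0.07 (adjusted p = 0.867).

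Of 26 BMP pathway genes none was called in wild-type mice, with a median of -0.13. At an unadjusted p below 0.05 there were 9 of 26, against 3341 of all 19938 genes. Bmp6, the other hepcidin-inducing ligand of the sinusoid, picked in the same way, stood at -0.32 ± 0.13 (adjusted p = 0.213) beside the fall of Bmp2. In null mice the BMP target Id3 fell to 8.08, 7.56 and 7.94 with DEHP, against 8.73, 8.73, 8.78 and 8.99 on corn oil (-0.94 ± 0.18, adjusted p = 0.0351). Id1 fell likewise (-0.59 ± 0.12, adjusted p = 0.0461), while Bmp2 was at -0.03 there. These were 2 of 26, where 0.311% of all genes were called down in null mice. In wild-type mice Id1 read -0.38 ± 0.11 (adjusted p = 0.0753) and Id3 -0.20 ± 0.17 (adjusted p = 0.627). A difference between the genotypes was not shown for either, with an interaction of -0.21 ± 0.17 for Id1 (adjusted p = 0.656) and -0.75 ± 0.24 for Id3 (adjusted p = 0.166). The Id1 call was lost in all 7 fits without 1 null animal and that of Id3 in 5 of 7. Between null and wild-type mice under DEHP, the BMP receptor genes Acvr1 (0.29 ± 0.06, adjusted p = 0.00628) and Bmpr2 (0.26 ± 0.06, adjusted p = 0.00862) were called up. With 2 of 26 called up and 2 called down, the list was near all genes, of which 5.09% were called up and 5.61% down. Id1 (-0.53 ± 0.12, adjusted p = 0.0106) and Id3 (-0.74 ± 0.18, adjusted p = 0.014) were called down there, and the calls of Acvr1 and Id3 were each lost in 1 of 7 fits without 1 DEHP animal.

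Of 17 WNT-dependent or pericentral hepatocyte genes 2 fell in wild-type mice given DEHP and none rose, where 1.57% of all genes fell. Notum, a WNT target that inactivates WNTs, read 7.995, 8.12, 7.94 and 8.17 with DEHP and 8.42, 8.59, 8.37 and 8.57 on corn oil (-0.43 ± 0.08, adjusted p = 0.00444), and Cyp1a2, a pericentral cytochrome, 12.09, 12.26, 12.03 and 12.22 with DEHP and 12.61, 12.37, 12.51 and 12.39 on corn oil (-0.32 ± 0.08, adjusted p = 0.0286). The Cyp1a2 call was lost in 4 of 8 fits without 1 wild-type animal. The median of the list was 0.01, and the WNT target Axin2, picked by role after its values were seen, stood at 0.02 ± 0.14. Between null and wild-type mice on corn oil, 4 of 17 were called up (median 0.18): Oat, Slc1a2, Lect2 and Glul, where 0.642% of all genes were called up. Under DEHP 6 of 17 were called up, where 5.09% of all genes were, among them Cyp1a2 (0.71 ± 0.08), Lect2 (0.81 ± 0.10), Slc13a3 (1.03 ± 0.22) and Notum (0.33 ± 0.08). The interaction was called for Cyp1a2 alone (0.63 ± 0.11, adjusted p = 0.0185), 1 of 17 where 0.336% of all genes were called up.

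Further vascular genes were called only between genotypes. Of 24 other vascular genes none was called in wild-type mice, with a median of -0.02. At an unadjusted p below 0.05 there were 5 of 24, against 3341 of all 19938 genes. Under DEHP 6 were higher in null mice, where 5.09% of all genes were. The 4 with the lowest p were the ephrin receptor Ephb4 (0.38 ± 0.08), the coagulation inhibitor Tfpi (0.34 ± 0.07), the adhesion receptor Eltd1 (0.41 ± 0.09) and Icam1 (0.43 ± 0.10), a leukocyte adhesion molecule. Icam1 was higher in null mice on corn oil as well (0.57 ± 0.09, adjusted p = 0.00453). Of 18 endothelial transcription factors none was called in wild-type mice, with a median of -0.06. There were 3 of 18 at an unadjusted p below 0.05, where 3341 of all 19938 genes were. Under DEHP 5 were higher in null mice, led by Meis2 (0.39 ± 0.08), Maf (0.28 ± 0.07), Foxf1a (0.33 ± 0.08) and Elk3 (0.23 ± 0.06).

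Markers of neighbouring cells moved in part with the endothelial genes. Of 16 stellate cell markers 2 fell in wild-type mice given DEHP, where 1.57% of all genes fell. They were the secreted protein genes Reln (8.19, 8.09, 8.11 and 8.01 with DEHP and 8.58, 8.68, 8.54 and 8.59 on corn oil, -0.50 ± 0.10) and Ecm1 (-0.38 ± 0.06), with a list median of -0.02. The stellate medians by animal were -0.24 to -0.19 in wild-type mice given DEHP and -0.15 to -0.09 in wild-type mice on corn oil. In null mice they were -0.06 to 0.22 with DEHP and 0.04 to 0.45 on corn oil. Between null and wild-type mice their median difference was 0.34 under DEHP, with 5 of 16 called up where 5.09% of all genes were, and 0.30 on corn oil, with 1 of 16 called up where 0.642% of all genes were.

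Of 16 Kupffer cell markers none was called in wild-type mice, and 0 had an unadjusted p below 0.05, against 3341 of all 19938 genes. Their medians by animal overlapped (-0.35 to 0.16 with DEHP, -0.26 to -0.01 on corn oil). Between genotypes the Kupffer median was 0.28 under DEHP and 0.25 on corn oil, with Csf1r called under DEHP (0.44 ± 0.11) and Lyz2 on corn oil (0.93 ± 0.17). Each was 1 of 16 called up, where 5.09% of all genes were under DEHP and 0.642% on corn oil. The 9 hepatocyte markers had a median of -0.06 in wild-type mice, with medians by animal of -0.10 to -0.05 with DEHP and 0.01 to 0.03 on corn oil that did not overlap. Of these 9, 8 lay below 0, against 55% of all genes. The urea cycle enzyme Cps1 was called down (-0.34 ± 0.08), 1 of 9 where 1.57% of all genes were. Between null and wild-type mice under DEHP the hepatocyte median was 0.12, with 2 of 9 called up, Apob (0.32 ± 0.06, adjusted p = 0.00272) and the transcription factor Hnf4a (0.33 ± 0.08, adjusted p = 0.00995), and 4 of 9 higher in every null animal. Of all genes 5.09% were called up there, and 11% were higher in every null animal. The Hnf4a call was lost in 1 of 7 fits without 1 DEHP animal. Lymphocyte, neutrophil and cholangiocyte lists had wild-type medians of 0.01, 0.00 and 0.11, with 1 call among them, the rise of the neutrophil gene S100a8 (1.78 ± 0.24). This was 1 of 10 neutrophil genes, where 2.29% of all genes were called up. Of the 4 red cell genes only Alas2 was measured, at 10.03, 10.12, 9.79 and 10.46 in wild-type mice given DEHP and 10.54, 10.54, 10.53 and 10.52 in wild-type mice on corn oil (-0.43, not called). In null mice Alas2 read 10.76, 10.55 and 10.87 with DEHP and 10.90, 10.79, 10.48 and 10.61 on corn oil, and under DEHP it was called higher in null than in wild-type mice, without overlap (0.63 ± 0.13, adjusted p = 0.00501). The part of these lists in the endothelial results was not tested.

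**Figure D5:**
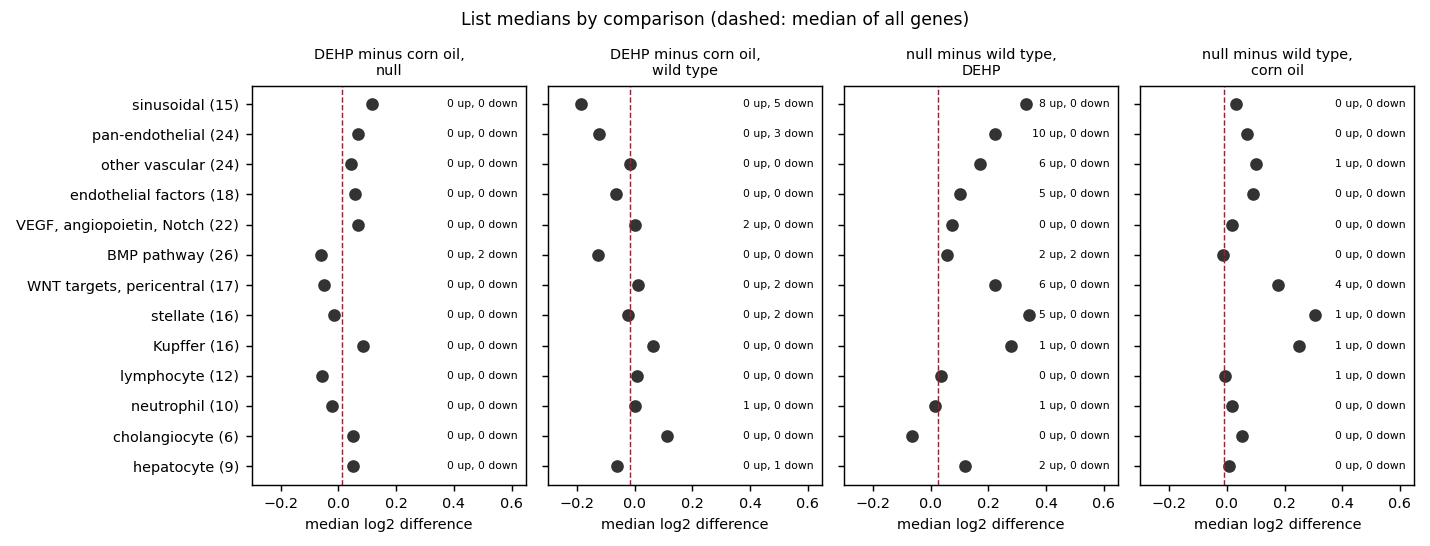
Median log2 difference (horizontal axis) of each gene list (rows, with the number of genes measured) in 4 comparisons, with the counts of genes called up and down and the median of all genes as a dashed line. In wild-type mice the sinusoidal and pan-endothelial lists lie left of the dashed line at -0.19 and -0.12, and between genotypes on corn oil the stellate and Kupffer lists lie farthest right at 0.30 and 0.25.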

How the data were processed

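Liver RNA of 15 male mice was measured on 15 single-colour arrays, 1 array per animal. Per the labels' protocols, total RNA was labelled with the Affymetrix WT cDNA synthesis and amplification kit. The authors deposited positive linear intensity values (1.77 to 23336.67) with near-equal medians, so the arrays had already been scaled together. How, with what software and in which batches was not given in the sources used here, and detection calls were not used.

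Log2 was taken of each deposited intensity, with no further scaling. The annotation gave 1 symbol for 21789 of the 35494 probe sets, several for 1621 and none for 12084, and 21698 were matched by gene identifier. The brightest probe set of each gene was kept, which gave 19938 genes. A second probe set that names both Ramp2 and Malat1 was not used. All 15 arrays entered 1 limma fit (version 3.58.1, R 4.3.3) whose terms were the 4 group means (11 residual and 4.68 prior degrees of freedom), with Benjamini-Hochberg adjustment over all genes of a contrast. The fit was tested on simulated data. No gene set or list score was tested.

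The members and lists were chosen with earlier results of these data known. Members called in any comparison and 14 fixed members are given with their animals' values, and of each other list up to 4 called genes by lowest p. Precision is limited by the 3 or 4 arrays per group. Alternatives were quantile normalization, median centring, an added 32, trended robust variance, array weights, averaged probe sets, a filter on level, fits of 2 groups and leaving out each animal. Tables and figures used pandas 2.3.3, numpy 2.4.6 and matplotlib 3.10.9 (Python 3.11.15).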

Additional observations from a re-analysis of the deposited data

Results flagged for a closer look

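The response to DEHP differed between the genotypes by the interaction test for Ehd3 (0.66, adjusted p = 0.0163), Fcgr2b (0.53, adjusted p = 0.0416) and Stab2 (0.43, adjusted p = 0.0234), as null response minus wild-type response. With 1 animal left out at a time, Ehd3 stayed called in all 15 fits. Fcgr2b lost its call in 10 of them and Stab2 in 7. For each gene, all 4 wild-type animals given DEHP lay below all 4 on corn oil.

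A single animal stood apart from the other 3 of its group in 7 cases over the 39 genes and the 2 list medians in the 3 groups of 4 animals. That is 5.69% of the groups checked, and chance flags about 1 in 20. In null mice on corn oil, KO-115 read 7.49 for Pecam1 (others 7.22 to 7.24), 9.32 for Plvap (others 8.87 to 8.91), 7.30 for Ramp2 (others 7.29) and 9.13 for Ptprb (others 9.33 to 9.36), and KO-118 read 6.995 for Flt1 (others 6.89 to 6.90). In wild-type mice given DEHP, WT-57 read 6.34 for Wnt9b and WT-56 6.94 for Sox18. In both of these genes the other 3 animals had the same value to the last digit, 6.38 and 6.97, so that the gap is small although it fills the whole range. The repeated value was not confined to this group. For Wnt9b it also occurred in KO-115 and WT-53, and for Sox18 in KO-116. Other members, too, had values repeated across groups, among them Icam2, Lyve1, Ramp2, Nos3, Flt4, Erg and Stab1. No explanation of these values was tested.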

How the results depend on the processing

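No paired analysis was possible because the groups share no animal numbers. The number of endothelial genes called in wild-type mice was 8, against 5 with each array centred on its median and 3 with only the 2 groups in the fit, and it ran from 2 to 7 when 1 animal was left out. In null mice it was 0, against 1 (Flt1, up) on the log2 of intensity plus 32 and 2 (Flt1 up, Egfl7 down) when only genes at or above the median level were tested, where fewer tests were adjusted for. For the interaction it was 3, against 1 with centring, 5 with a trended and robust variance and 6 with the filter on level, and 1 to 3 without 1 animal. Between genotypes under DEHP it was 18, against 12 with centring and 13 with only the 2 groups in the fit, and 7 to 15 without 1 animal. The median of the pan-endothelial genes in that comparison was 0.22, against 0.17 with centring (0.171) and 0.166 with the added 32, and 0.177 to 0.237 without 1 animal, and that of the sinusoidal genes was 0.33, and 0.299 to 0.416 without 1 animal. The cause of these changes was not tested. The other 32 counts under 8 other settings, with the 12 and 13 between genotypes under DEHP among them, stayed within 1.5 times. The other 58 medians stayed within the spread between animals. Medians were not compared for the trended robust variance or for the fits of 2 groups. The interaction had no fit of 2 groups. No called gene turned its direction in any setting.

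Over all genes, centring moved the share of calls that were up to 71.3% from 59.2% in wild-type mice, to 46.9% from 34% in null mice, to 23.4% from 37.4% for the interaction and to 27.9% from 47.5% between genotypes under DEHP. The count over all genes in null mice was 94 and ran from 1 with only the 2 groups in the fit to 427 with the filter on level, that of the interaction was 179 and reached 570, and that between genotypes under DEHP was 2133, and 1331 with only the 2 groups. Leaving out 1 animal gave 433 to 614 in wild-type mice, against 770, 9 to 168 in null mice, 61 to 299 for the interaction and 1019 to 1950 between genotypes under DEHP. Emcn, Icam2 and Sox17 lay below the median level of all genes, and detection calls were not used.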
